A study of Mus musculus with 3 samples.

Results

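Rag1 and Rag2 are neighbouring genes whose products together form the recombinase of developing lymphocytes. The reads over both genes were described in 3 ChIP-seq libraries (chromatin immunoprecipitation followed by sequencing) of mouse pro-B cells. The members are 2 of 21900 protein-coding genes in the gene table used for names, and they were taken with all reads in a window of 45 kb on chromosome 2, 101455001 to 101500000 (mm9). The window, and the stretches described below, were chosen on the read counts themselves, so what chose them is given as description with no test.

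Each library came from RAG2-/- Abelson-transformed pro-B cells, with C57BL/7 given as the strain, grown on plastic in RPMI1640 with serum and with no treatment named. Such cells are at an early stage of B-lineage development and grow in culture through Abelson virus. The 3 libraries differ by antibody, with 1 library each: H3R2me2s (symmetric dimethylation of arginine 2 of histone H3), H3R2me2sK4me3 (that mark together with trimethylation of lysine 4, called the combined mark here) and H3K4me3 alone. No wild-type cells and no input library were among the samples used here, and the sources used here do not say whether the cells are 1 clone. The labels do not say which part of Rag2 the allele lacks.

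RAG1 carries the catalytic site that cuts at recombination signal sequences beside antigen receptor gene segments. RAG2 is its partner and holds a PHD finger that binds the H3 tail trimethylated at lysine 4, and binding of a tail that is also symmetrically dimethylated at arginine 2 has been described. In the mouse the genes lie tail to tail, and the coding sequence of each lies whole in its last exon. Rag2 runs on the plus strand near 101465000 to 101473000 and Rag1 on the minus strand near 101478000 to 101490000. These spans are approximate, and exon ends on mm9 were not placed, since no mm9 annotation was used. In the gene order of the reference table Iftap precedes Rag2 and Traf6 follows Rag1.

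The sequences just upstream of both annotated starts are shown because each gene carried an H3K4me3 peak near its 5-prime end. They are the 250 bases before the start in RefSeq, on GRCm38.p6 coordinates that cannot be set beside the mm9 positions in this text. Capitals mark matches to CANNTG (the E box, bound by E proteins such as the Tcf3 product) and to CCAAT (the NF-Y core), each searched on both strands.
Rag2 (chr2:101624462-101624711, plus strand): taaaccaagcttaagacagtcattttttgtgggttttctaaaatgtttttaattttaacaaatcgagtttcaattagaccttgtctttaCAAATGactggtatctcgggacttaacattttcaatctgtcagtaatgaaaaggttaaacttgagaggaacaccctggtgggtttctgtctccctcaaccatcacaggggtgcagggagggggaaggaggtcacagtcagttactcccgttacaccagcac
Rag1 (chr2:101649533-101649782, minus strand): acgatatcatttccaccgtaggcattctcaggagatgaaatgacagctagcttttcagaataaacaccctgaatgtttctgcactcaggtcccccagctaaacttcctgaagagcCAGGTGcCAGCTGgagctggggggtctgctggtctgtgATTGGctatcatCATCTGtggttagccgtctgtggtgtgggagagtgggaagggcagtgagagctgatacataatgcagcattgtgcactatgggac

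The Rag1 sequence held 3 CANNTG matches and 1 CCAAT match, and the Rag2 sequence held 1 CANNTG match and 0 CCAAT matches. Of 32851 sequences of the same length, 66.2% held a CANNTG and 33.9% a CCAAT, so both motifs are common in such windows. Neither sequence held TATAAA, which 12.4% of sequences do. Each had 3 CpG dinucleotides, where the median was 6 and 62.2% had more. A match of letters is a description and not evidence of binding.

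Depth was 6923765 reads in the H3R2me2s library, 7128852 in the combined-mark library and 13898471 in the H3K4me3 library. Background was taken from 1 kb bins lying over 5 kb from every enriched bin, and was 2.35, 1.86 and 2.98 reads per kb in that order. Levels are given as reads per kb, as multiples of that background, or as CPM (counts scaled to the mapped reads of the library). Intervals are exact 95% intervals, Poisson for counts and binomial for ratios of counts, and they cover counting error within a library only. With 1 library per antibody there is no replicate error and no test between antibodies.

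The labels name Rag2 as the gene the cells lack, so its reads come first. The upstream part of Rag2 was read in all libraries, but a stretch toward its 3-prime end was nearly free of H3K4me3 reads and full of reads in the other libraries. This H3K4me3-poor stretch ran from 101469510 to 101471451, 1942 bp, beginning 4510 bp after the lower end of the Rag2 span and ending 1549 bp before its upper end. The H3R2me2s library had 210 reads there, the combined-mark library 411 and the H3K4me3 library 17. Per kb these were 108 (94.0 to 124), 212 (192 to 233) and 8.75 (5.10 to 14.0), or 45.9, 114 and 2.94 times background. The labels describe the cells of all 3 libraries in the same words. Over this stretch the H3K4me3 library differs from the libraries labelled H3R2me2s and H3R2me2sK4me3, and since the extent of the deletion is not given, it cannot be said which of them goes against the genotype label. Antibody and preparation cannot be told apart here.

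Counts in 971 bp on each side set the stretch beside its surroundings. H3R2me2s had 58 reads before it and 0 after it, the combined mark 135 and 3, and H3K4me3 181 and 7. H3K4me3 was therefore sparser in the stretch than before it, while the others were not. Its fall was not confined to the lower edge. Successive 100 bp bins over the last 500 bp before that edge held 22, 8, 8, 24 and 8 H3K4me3 reads, and the first bin inside held 0. That edge was set at the last H3K4me3 read before bins chosen for few H3K4me3 and many combined-mark reads. The contrast of these libraries there follows at least in part from that choice and is description only. Read density in the stretch over that before it was 0.0470 (0.0268 to 0.0773) for H3K4me3. The same quantity was 1.81 (1.35 to 2.47) for H3R2me2s and 1.52 (1.25 to 1.86) for the combined mark. At the upper edge, which was set at the last read of an unbroken run, reads stopped in both of these libraries. Within 100 bp inside that edge H3R2me2s had 4 plus-strand and 7 minus-strand reads, and within 100 bp outside it had 0 on either strand. For the combined mark the inside counts were 8 and 6, and the outside counts 0 and 1. The next H3R2me2s read lay 934 bp away.

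H3K4me3 reads were not spread evenly over the stretch. In its first 800 bp there was 1 read of H3K4me3, where background alone would give 2.38, while H3R2me2s had 102 reads and the combined mark 201. The remaining 1142 bp held 16 H3K4me3 reads, where background would give 3.40, beside 108 and 210. The 800 bp division was chosen after the reads were seen. The longest part with no H3K4me3 read was 560 bp, from 101469797 to 101470356, while the longest unread part was 36 bp for H3R2me2s and 16 bp for the combined mark. In the first 800 bp the strands were even, with 51 plus and 51 minus reads of H3R2me2s and 101 and 100 of the combined mark. These libraries were lower toward the upper end. The lower and upper 971 bp held 118 and 88 reads of H3R2me2s, and 230 and 176 of the combined mark. Over 18 bins of 100 bp the coefficient of variation was 0.311 for H3R2me2s and 0.347 for the combined mark, where counting alone gives 0.301 and 0.214.

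**Figure D1:**
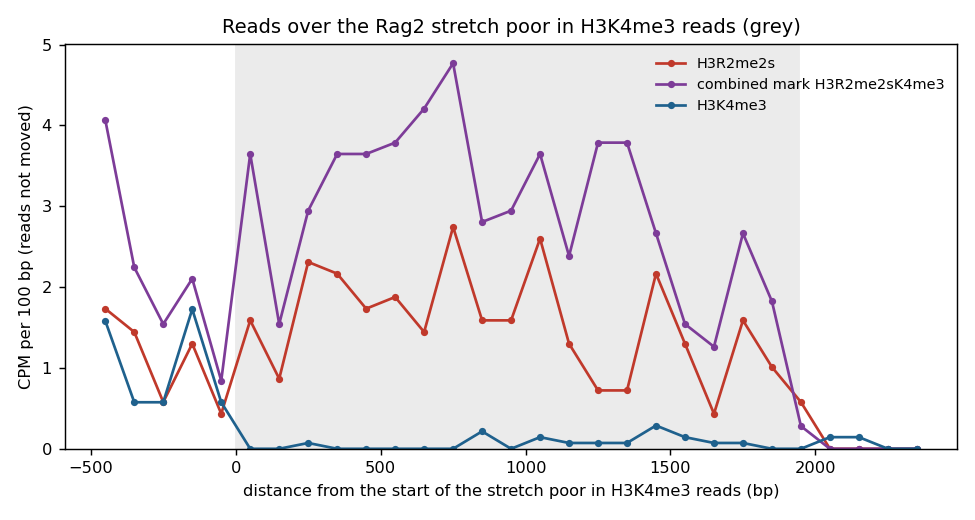
Reads per 100 bp, as CPM with reads not moved, against the distance in bp from the start of the H3K4me3-poor stretch of Rag2, which is shaded. Lines join the bins of each library: H3K4me3 falls to 0 or 1 read per bin over the first 800 bp. H3R2me2s and the combined mark stay raised, fall unevenly toward the upper end and stop near 1942 bp.

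CPM ratios put a size on this. The ratio of H3R2me2s to H3K4me3 over the stretch was 24.8 (15.1 to 43.4), and that of the combined mark to H3K4me3 was 47.1 (29.1 to 81.7). With reads moved 150 bp, which carries flanking H3K4me3 reads into the stretch, they were 15.1 and 28.2. Between the libraries labelled with the arginine mark, H3R2me2s over the combined mark gave 0.526 (0.443 to 0.623). Over 12802 enriched regions of the genome the median of that last ratio was 0.472, so on this pair of libraries the stretch was like other enriched regions.

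Upstream of this stretch Rag2 carried a broad H3K4me3 domain from 101463201 to 101469509, 6309 bp, bounded where 200 bp bins fell under 10 times background or at the start of the H3K4me3-poor stretch. It held 1025 reads of H3K4me3, 429 of the combined mark and 183 of H3R2me2s. These were 54.5 (51.3 to 58.0), 36.5 (33.2 to 40.2) and 12.3 (10.6 to 14.2) times background. All 3 libraries were thus raised over the domain, with H3K4me3 highest in multiples of its own background.

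The domain had a pair of H3K4me3 summits 3000 bp apart. The first was the 200 bp bin from 101465201 to 101465400, close to the lower, 5-prime end of the approximate Rag2 span, with 113 H3K4me3 reads where the median bin of the domain had 22. The highest combined-mark bin was the same, with 61 reads against a median of 7. The highest H3R2me2s bin was the one just before it, with 17 reads against a median of 4, and at such counts neighbouring bins cannot be ordered. In 1 kb around the first summit there were 280, 136 and 44 reads of H3K4me3, the combined mark and H3R2me2s, and in 1 kb around the second 242, 88 and 37. The order of the summits was not settled. For H3K4me3 and H3R2me2s their intervals overlapped, and for the combined mark they did not, at 136 (114 to 161) against 88 (70.6 to 108). In the fixed 1 kb bins that hold the summits, chosen after seeing the data, the combined mark had 134 (112 to 159) and 107 (87.7 to 129) reads, with intervals that overlapped.

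Rag1 carried a weaker H3K4me3 domain at the 5-prime end of its approximate span, from 101487201 to 101490400. It held 322 H3K4me3 reads, 90 of the combined mark and 31 of H3R2me2s, or 33.8 (30.2 to 37.7), 15.1 (12.2 to 18.6) and 4.11 (2.80 to 5.84) times background. Each was lower than at Rag2, with intervals that did not overlap. Its highest H3K4me3 bin was 101489201 to 101489400, with 36 reads, and lay 24000 bp from the first Rag2 summit. Per kb, H3K4me3 stood at 101 reads in the Rag1 domain and 162 in the Rag2 domain, H3R2me2s at 9.69 and 29.0.

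The CPM ratio of H3R2me2s to H3K4me3 was 0.193 (0.129 to 0.280) in the Rag1 domain and 0.358 (0.305 to 0.420) in the Rag2 domain, lower at Rag1 with intervals that did not overlap. In 1 kb around the summits the intervals did overlap. The ratio there was 0.198 (0.108 to 0.337) at Rag1, and 0.315 (0.224 to 0.435) and 0.307 (0.211 to 0.435) at Rag2. The order of the genes on this ratio was therefore not settled. Other regions of the genome were built from merged 1 kb bins, with wider edges, and the Rag regions built the same way had higher ratios. The Rag1 region, 101486001 to 101491000, had 47 H3R2me2s and 357 H3K4me3 reads, a ratio of 0.264 (0.191 to 0.359). The Rag2 region, 101461001 to 101470000, had 0.469 (0.408 to 0.538) and reaches into the H3K4me3-poor stretch. Over 18314 H3K4me3 regions the median was 0.407 and the 5th percentile 0.251. The Rag1 region thus lay in the lower part of the spread, with 6.27% of regions below it, and 71.1% lay below the Rag2 region. This is a placement and no test. The Rag2 domain itself ends at the H3K4me3-poor stretch, and its last bins raise its ratios to H3K4me3. Its last whole 200 bp bin, 101469201 to 101469400, had 16 H3R2me2s, 26 combined-mark and 18 H3K4me3 reads. The median bins of the domain had 4, 7 and 22. The combined mark to H3K4me3 gave 0.545 (0.426 to 0.690) in the Rag1 domain and 0.816 (0.727 to 0.914) in the Rag2 domain. Around the summits it was 0.680 (0.488 to 0.935) at Rag1, and 0.947 (0.766 to 1.17) and 0.709 (0.549 to 0.908) at Rag2, with intervals that overlapped. In the regions of merged bins the Rag1 and Rag2 ratios were 0.579 (0.462 to 0.721) and 0.989 (0.891 to 1.10), where the median region had 0.711. The Rag1 values rest on few reads, with 31 of H3R2me2s.

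**Figure D2:**
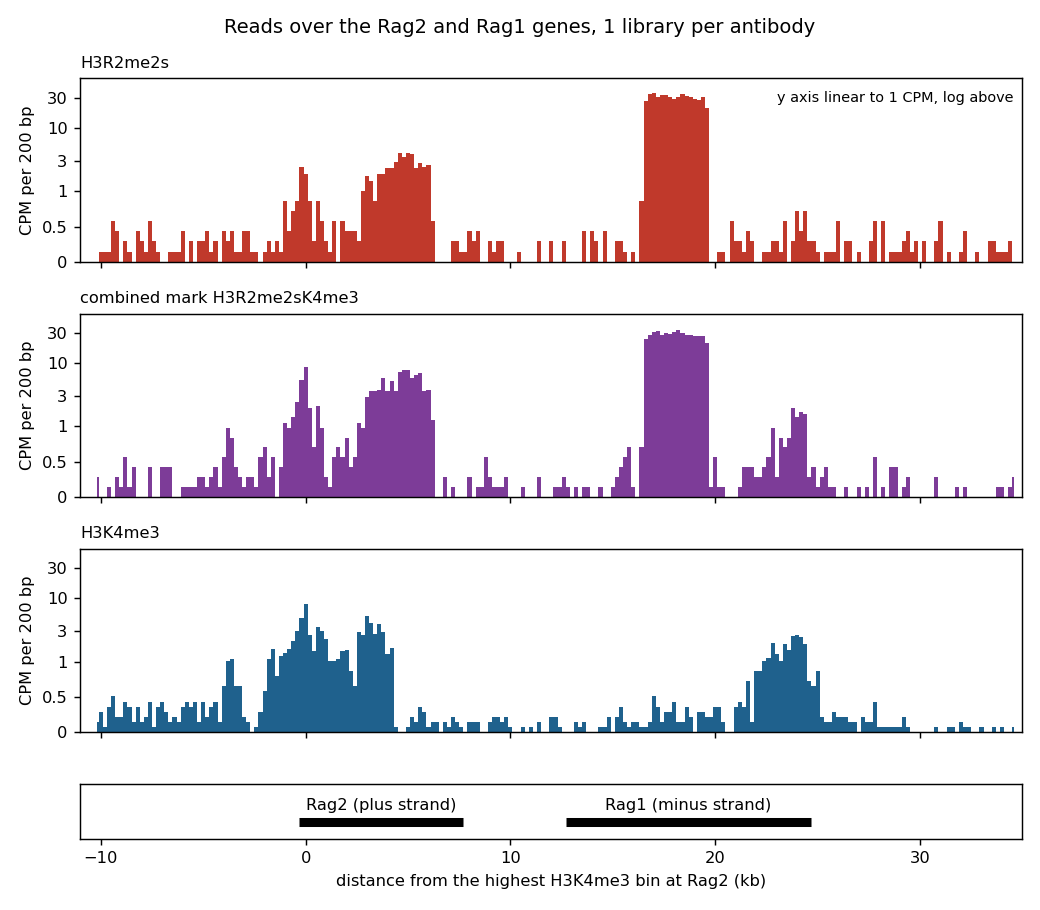
CPM per 200 bp in each library against the distance in kb from the highest H3K4me3 bin at Rag2, on an axis that is linear to 1 CPM and logarithmic above, with the approximate gene spans as black bars. Both genes have H3K4me3 at their 5-prime ends, and the flat block of 3126 bp inside Rag1 is seen for H3R2me2s and the combined mark but not for H3K4me3.

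The largest signal of the locus was not at either 5-prime end but inside Rag1. A block from 101481829 to 101484954, 3126 bp, had 3352 reads in the H3R2me2s library, 3208 in the combined-mark library and 54 in the H3K4me3 library. Per kb these were 1072 (1036 to 1109), 1026 (991 to 1062) and 17.3 (13.0 to 22.5), or 455, 551 and 5.80 times background. The block took 0.0484% of all H3R2me2s reads and 0.0450% of all combined-mark reads. It began 3829 bp after the lower end of the Rag1 span, which is the 3-prime end of this minus-strand gene, and ended 5046 bp before the upper end. Between the upper edge of the H3K4me3-poor Rag2 stretch and the block lay 10377 bp. Whether the block covers the coding part of Rag1 exactly was not tested, since the exon ends were not placed on mm9.

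Among all 1 kb bins of the genome the 3 highest of H3R2me2s and of the combined mark were those that lie wholly in the block or at its upper end. The highest for H3R2me2s, 101482001 to 101483000, had 1141 H3R2me2s reads, and the highest for the combined mark, 101483001 to 101484000, had 1071 combined-mark reads. The highest bin elsewhere, on chromosome 1 from 90173001 to 90174000, had 365 and 754 reads, and 1379 of H3K4me3. For H3K4me3 the highest bin touching the block had 20 reads, below the limit of 25 at which a bin was called enriched.

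Both edges of the block were sharp to within a few bases and fell at the same place on both strands and in both libraries. In the H3R2me2s library the first base read was 101481829 on the plus strand and 101481831 on the minus strand, and the last was 101484952 and 101484953. In the combined-mark library the first bases were 101481837 and 101481829, and on both strands the last was 101484954. The edges were set at the outermost reads of an unbroken run, so that no read crosses them by construction. Within 100 bp inside the lower edge H3R2me2s had 57 plus-strand and 71 minus-strand reads and the combined mark 53 and 58. Inside the upper edge they had 56 and 56, and 54 and 63. In the 100 bp outside each edge there were 0 reads of either library on either strand. The nearest outside reads lay 128 bp before the block in both libraries, and 509 bp after it for H3R2me2s and 139 bp for the combined mark. In the 1 kb before and after the block H3R2me2s had 3 and 2 reads, the combined mark 9 and 7, and H3K4me3 8 and 15. H3K4me3 inside the block, at 17.3 per kb (13.0 to 22.5), was above its count before the block and within its interval of the count after it.

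**Figure D3:**
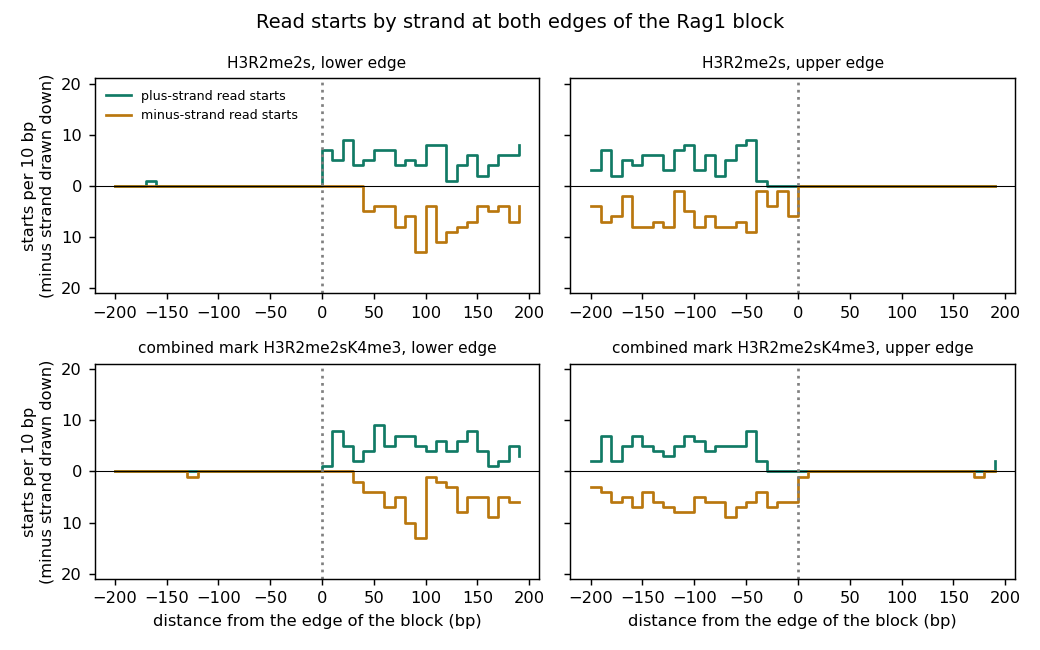
Read starts per 10 bp by strand, plus drawn up and minus drawn down, against the distance in bp from the lower and upper edge of the Rag1 block, for H3R2me2s (top) and the combined mark (bottom). Starts of minus-strand reads begin one read length inside the lower edge, as do plus-strand starts at the upper edge, because reads of 39 bases lie wholly inside the block.

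Inside the block the reads lay nearly evenly in both libraries. Over 30 bins of 100 bp, H3R2me2s ranged from 83 to 127 reads with a median of 108, and the combined mark from 83 to 134 with a median of 104. The coefficient of variation was 0.0973 for H3R2me2s and 0.122 for the combined mark, where counting alone gives 0.0961 and 0.0983. Over 200 bp bins it was 0.0900 and 0.0891, so which library was more even was not settled. The lower 15 bins held 1677 H3R2me2s reads and the upper 15 held 1574, and for the combined mark the counts were 1613 and 1493. Plus-strand reads made up 49.3% (47.6 to 51.0) of H3R2me2s and 47.8% (46.0 to 49.5) of the combined mark. Across the 30 bins Pearson's r between the libraries was 0.33 and Spearman's rho 0.37, and these bins share base composition and mapping.

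**Figure D4:**
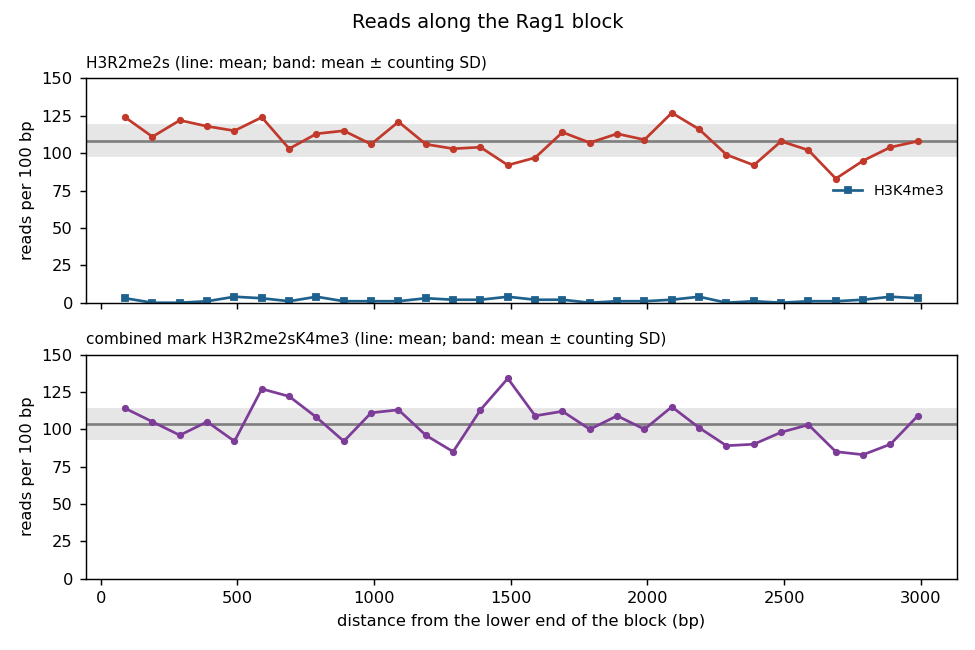
Reads per 100 bp along the Rag1 block against the distance in bp from its lower end, for H3R2me2s with H3K4me3 (top) and for the combined mark (bottom). The horizontal line is the mean and the band is the mean ± the SD that counting gives, and 20 of 30 bins of H3R2me2s and 17 of 30 of the combined mark lie in the band while H3K4me3 stays at 4 reads or fewer.

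Read starts in the block were dense enough for repeats to matter. Of 6176 possible starts (position and strand), 2920 were used in H3R2me2s and 2939 in the combined mark, or 47.3% and 47.6%. Reads that repeated a start made up 12.9% and 8.39%, above the 5.22% and 2.64% of the whole libraries. Random placement of as many reads on as many starts would repeat 22.8% and 22.0%. No source used here says whether repeated reads were removed in part before deposit. Counts in the block may then be too low, and their spread along the block too small to set beside counting alone. With 1 read kept per start, the block stood at 418 and 514 times background.

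The ratio of H3R2me2s to H3K4me3 in the block was 125 (95.3 to 166) and that of the combined mark to H3K4me3 was 116 (88.5 to 155). H3R2me2s over the combined mark gave 1.08 (1.02 to 1.13) in CPM and 0.826 when scaled to background, so which of them is higher depends on the scaling. On the CPM scale 94.6% of 12802 regions lay below it. The same share, 94.6%, lay below the ratio of 1.08 (0.574 to 2.03) in the quiet chromatin between the genes. In the H3K4me3-poor Rag2 stretch that ratio was 0.526, as given above, and its interval did not overlap that of the block. The block and the Rag2 stretch thus shared high ratios to H3K4me3 but differed in the balance of the other libraries and in height. In the stretch H3K4me3 was below its level just upstream, while in the block it was not below the 1 kb on either side.

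**Figure D5:**
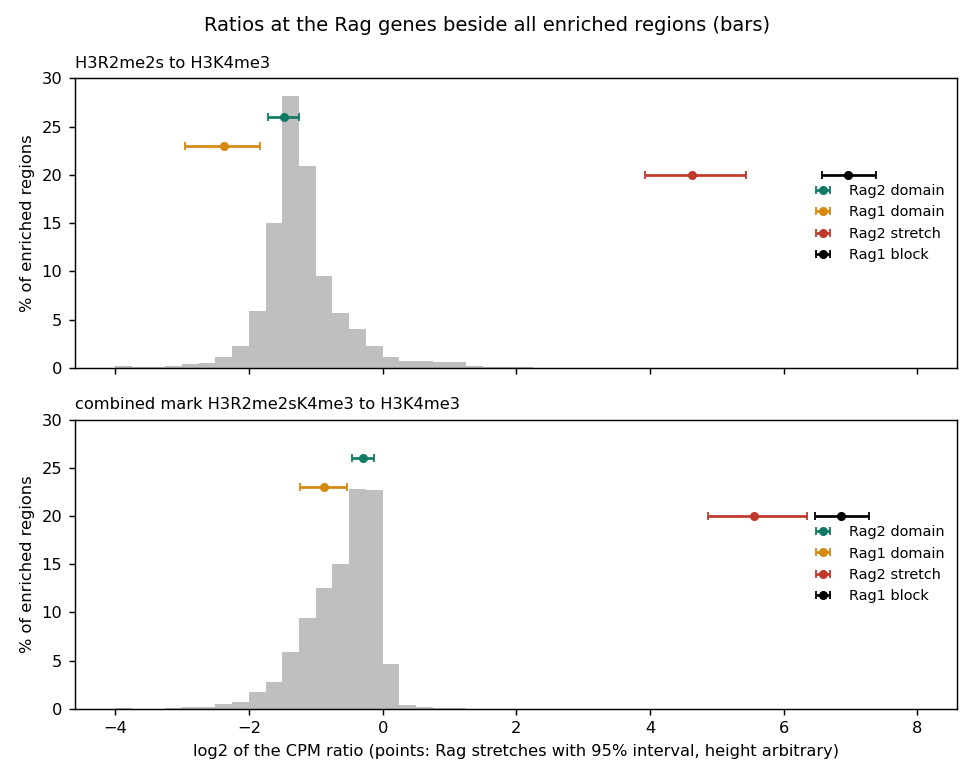
Share of enriched regions of the genome in % (grey bars) against log2 of the CPM ratio to H3K4me3, for H3R2me2s (top) and the combined mark (bottom), with 4 stretches of the Rag genes as points with 95% intervals at arbitrary height. The domains at the 5-prime ends, whose edges are finer than those of the regions, overlap the bars, while the H3K4me3-poor Rag2 stretch and the Rag1 block lie far above it.

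By 1 kb bins, 12 of the 45 in the window were called enriched for H3R2me2s (1.23% of all bins), 15 for the combined mark (1.45%) and 13 for H3K4me3 (2.45%). The window was chosen around these signals, so the counts are not read against those shares. All 3 marks were called together in 6 bins, of which 5 lay in or across the end of the Rag2 domain and 1 at the Rag1 summit. H3R2me2s was at least 4 times H3K4me3 in CPM in 6 bins, of 31 in the genome (0.055% of 56313 bins compared). The combined mark was so in 7 bins, of 8 in the genome (0.0143% of 55775). The 8th, named after its value was seen, lay on chromosome 17 from 39982001 to 39983000, with 26 combined-mark reads and 11 of H3K4me3.

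Between the genes, from 101473001 to 101478000, the chromatin was quiet. There were 23, 22 and 31 reads of H3R2me2s, the combined mark and H3K4me3 in 5 kb, or 1.95 (1.24 to 2.93), 2.36 (1.48 to 3.58) and 2.08 (1.41 to 2.95) times background. None of its 5 bins was called enriched, and the highest had 9, 9 and 10 reads.

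By their ratios to H3K4me3, the 3 kb windows of the genome most like the block held few reads. Ranked by the smaller lower bound of the ratios of both other libraries to H3K4me3, the 5 nearest outside the locus held 11 to 19 reads of H3R2me2s and 11 to 16 of the combined mark, with 0 or 1 of H3K4me3. They lay on chromosome 1 (38457001 to 38460000), chromosome 19 (25243001 to 25246000), chromosome 17 (27520001 to 27523000), chromosome 9 (75319001 to 75322000) and chromosome 4 (115767001 to 115770000). At the other end of that order, ranked by the larger upper bound, came chromosome 12 (94117001 to 94120000) with 31, 26 and 262 reads, and chromosome 5 (12579001 to 12582000) with 25, 24 and 215. They were followed by chromosome 7 (96361001 to 96364000), chromosome 8 (74408001 to 74411000) and chromosome 3 (75807001 to 75810000).

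For the 5-prime ends, likeness was measured as the distance between 3 log2 levels, 1 per library, over 18461 H3K4me3 regions. The Rag2 region, 101461001 to 101470000, had mean levels of 12.1, 33.2 and 40.9 times background for H3R2me2s, the combined mark and H3K4me3, and included the first part of the H3K4me3-poor stretch. It was wider than 96.9% of regions. Its nearest were on chromosome 17 (17974001 to 17977000, distance 0.012), chromosome 3 (30959001 to 30961000), chromosome 11 (77794001 to 77801000), chromosome 7 (150783001 to 150787000) and chromosome 8 (121868001 to 121870000, distance 0.040). The Rag1 region, 101486001 to 101491000, had 3.99, 11.4 and 24.0 times background. Its nearest were on chromosome 14 (19066001 to 19068000, distance 0.037), chromosome 17 (12499001 to 12502000), chromosome 6 (30983001 to 30984000), chromosome 18 (23909001 to 23913000) and chromosome X (97972001 to 97975000, distance 0.072). As many as 2693 regions lay within 0.5 of Rag2 and 856 within 0.5 of Rag1. Genes at these positions were not assigned, and nothing is read from the likeness.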

How the data were processed

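Per the labels' protocols, nuclei were sonicated, libraries were amplified with 15 PCR cycles and fragments of 100 to 500 bp were sequenced. Per the submitters' processing notes the build was mm9. How reads were aligned, and how repeated sequence and repeated reads were treated, was not given in the sources used here. Each line of a deposited file is 1 mapped read, 39 bases long, so summing lines over a stretch gives raw, unscaled read counts.

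Reads were moved 75 bp in their 3-prime direction for bins, domains and summits, and counted unmoved and whole within the H3K4me3-poor stretch and the block. A 1 kb bin was called at 4 times the mean and at a Poisson upper tail under 1e-06, giving limits of 15, 16 and 25 reads; bins up to 1 kb apart were merged. The block is the longest run of 100 bp bins at 100 times background in both libraries, extended to the last read before an unread break over 20 bp. The H3K4me3-poor stretch is the longest run with the combined mark at 4 times H3K4me3 in CPM (0.5 read added), from the last H3K4me3 read before it to the last read of the other libraries. Ratios over regions used those with 30 reads or more.

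Named regions followed a rule: the 5 H3K4me3 regions nearest to each 5-prime end, and the 5 highest and lowest 3 kb windows (the lowest among those with 30 H3K4me3 reads or more). Members, stretches, gene spans and lists were chosen with earlier results of these data known. Partner genes and cell type markers were not analysed here, since their mm9 positions were not used; the pro-B identity was therefore not checked. Alternatives were no move and a 150 bp move of reads, 1 read per start, scaling to background, 8 times the mean, 200 bp bins, wider flanks and regions of merged 1 kb bins. The steps were tested on simulated data. Python 3.11.15, NumPy 2.4.6, SciPy 1.17.1 and pandas 2.3.3 were used.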

Additional observations from a re-analysis of the deposited data

How the results depend on the processing

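Of 104 values recomputed, 85 stayed within their interval, within 1.5 times for counts of bins, or at the same width for edges; 18 moved and 1 turned. With scaling to background, not to all reads, the ratio of H3R2me2s to the combined mark in the Rag1 block turned from 1.08 to 0.826. This scaling moved that ratio to 0.337 in the Rag2 domain and 0.404 in the H3K4me3-poor stretch. The ratio of H3R2me2s to H3K4me3 moved to 0.226 in the Rag2 domain, 0.122 in the Rag1 domain and 78.5 in the block, and that of the combined mark to H3K4me3 to 0.670 in the Rag2 domain. With reads moved 150 bp, ratios to H3K4me3 in the H3K4me3-poor stretch were 15.1 (H3R2me2s) and 28.2 (combined mark), and the block stood at 437 and 531 times background. With 1 read per position and strand the block stood at 418 and 514 times background, and H3K4me3 in the Rag2 domain at 50.5. The H3K4me3-poor stretch was 2022 bp wide when found with 200 bp bins, while the block kept 3126 bp. Over 200 bp bins the coefficient of variation of the combined mark in the block was 0.0891, beside 0.0900 for H3R2me2s, which stayed within its interval. With flanks of 2 times the width, the density of the combined mark in the H3K4me3-poor stretch over both flanks went from 2.98 to 3.99. In the Rag2 region of merged 1 kb bins, a setting chosen after seeing the data, ratios to H3K4me3 were 0.469 (H3R2me2s) and 0.989 (combined mark). No ratio to H3K4me3 in the H3K4me3-poor stretch or the block came near 1 under any of these settings. The stretch was chosen on its ratio to H3K4me3, and the block on high counts of the other libraries. High ratios there follow at least in part from that choice and are no support. No paired analysis was possible because there is a single library per antibody, and for that reason none was left out. Mapping ability of the sequence was not analysed here, so an unread stretch is not shown to lack DNA.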

Other observations

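Around the locus, 27 bins of 1 kb from 101380001 to 101600000 were called for at least 1 library, 19 of them in the window. The nearest peak on the Rag1 side lay at 101519001 to 101520000, with 43 H3R2me2s reads, 93 combined-mark reads and 238 H3K4me3 reads, or 18.3, 49.96 and 79.9 times background. On the Rag2 side, 101440001 to 101441000 had 14, 13 and 57 reads, and there only H3K4me3 was called. At 101540001 to 101541000 only H3R2me2s was called, with 21 reads beside 6 and 10. The genes at these bins were not assigned on mm9.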
